A study of Mus musculus with 16 samples.

Results

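The insulin-like growth factor (IGF) genes described here are 9: the growth factor Igf1, the receptors Igf1r and Igf2r, and the binding proteins Igfbp2, Igfbp3, Igfbp4, Igfbp5, Igfbp6 and Igfbp7. They were chosen by symbol, because Igfbp2 goes from near absence to high expression in the stem cells of the mutant mice and the others are its family. All 9 were found by identifier in both tables, among 55357 gene rows for skin and 56953 for the sorted cells. The study sequenced bulk RNA of C57BL/6 mice that were either Control or GRK2 eKO. GRK2 is a kinase that acts on G-protein-coupled receptors, and the labels do not spell out eKO. The genotype label gave the group of each skin library, and the title, Control or eKO, that of each library of sorted cells. Whole back skin of mice aged 8 months gave 5 control and 5 eKO libraries. Hair follicle stem cells (HFSC), sorted by flow cytometry as CD34+ α6-integrin+ cells of the bulge, gave 3 control and 3 eKO libraries. Their labels state an age of 18 months and the series text 8 months, so the age of the HFSC mice is not settled. The driver of the knockout, the sex of the mice, any pooling and the preparation batch are not given in the labels, and nothing says whether libraries of 1 group came from separate animals, so p-values measure only the spread between these libraries.

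IGF-I and IGF-II are secreted growth factors that signal through the IGF-1 receptor, a tyrosine kinase that feeds the PI3K, AKT and mTOR route and keeps FOXO transcription factors out of the nucleus. The binding proteins hold the ligands outside the cell, where they can withhold or deliver them, and proteases such as PAPP-A release the ligand by cutting the binding protein. The IGF-2 receptor carries IGF-II to lysosomes, and IGFBP7 binds IGFs more weakly than the other binding proteins. In skin, IGF-I from dermal cells acts on the epithelium of the hair follicle and is known for prolonging hair growth.

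The DNA before the start of 3 of these genes is shown first: Igfbp2 and Igf1, whose HFSC levels stood furthest apart between genotypes, and Igfbp5, the direct neighbour of Igfbp2 on chromosome 1, which lies on the opposite strand with its end facing that of Igfbp2. Each is the run of 250 bases upstream of the start in RefSeq on build GRCm38.p6, 5′ to 3′ on the strand of the gene. The windows are chr1:72824230-72824479 (plus strand, the first of 2 starts listed) for Igfbp2, chr1:72874866-72875115 (minus strand) for Igfbp5 and chr10:87860861-87861110 (plus strand) for Igf1. Capitals mark the GC box GGGCGG, searched on both strands, a sequence that transcription factors of the SP family bind.
Igfbp2: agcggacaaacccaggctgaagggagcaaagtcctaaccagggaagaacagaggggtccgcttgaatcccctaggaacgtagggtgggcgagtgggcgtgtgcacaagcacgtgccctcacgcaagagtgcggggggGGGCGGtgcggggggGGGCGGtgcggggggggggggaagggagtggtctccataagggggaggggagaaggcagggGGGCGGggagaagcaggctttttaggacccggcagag
Igfbp5: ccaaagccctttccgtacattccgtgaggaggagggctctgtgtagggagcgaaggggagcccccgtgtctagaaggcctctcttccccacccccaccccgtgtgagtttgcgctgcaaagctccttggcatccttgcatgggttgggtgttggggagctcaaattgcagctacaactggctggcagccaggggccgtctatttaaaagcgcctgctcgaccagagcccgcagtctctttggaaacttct
Igf1: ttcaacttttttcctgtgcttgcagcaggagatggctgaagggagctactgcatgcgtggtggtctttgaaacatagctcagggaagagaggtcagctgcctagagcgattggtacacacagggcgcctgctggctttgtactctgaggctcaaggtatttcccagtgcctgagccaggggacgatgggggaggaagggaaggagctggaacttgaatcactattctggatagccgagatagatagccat
The window of Igfbp2 held 3 GC boxes, and the other 2 windows held none. Among the members whose windows are not printed, Igfbp7 held 4, Igf2r 3 and Igf1r 2, while Igfbp3, Igfbp4 and Igfbp6 held none. Of 32851 mouse windows of the same length, 32.7% held at least 1 GC box. The Igfbp2 window had a GC content of 67.2% and 14 CpG dinucleotides, against a median of 52.4% and 6 over all windows. The Igfbp5 window had 58.8% and 10, the Igf1 window 52.8% and 5 and the Igfbp6 window 49.6% and 7. Higher than Igfbp2 on both measures were Igf1r (77.6% and 42), Igfbp7 (74% and 26), Igfbp3 (73.2% and 32), Igf2r (69.2% and 27) and Igfbp4 (69.2% and 22). Neither TATAAA (in 12.4% of all windows) nor the FOXO motif GTAAACA (3.17%) was found on either strand in any of the 3 printed windows. Among these 3, CCAAT (33.8%) was found once, in the Igf1 window. These are matches of letters only. The tables themselves were made on another build, GRCm39 per the labels, so the coordinates belong to the printed sequences and not to the measured values.

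The recovered reads ran from 11.6 to 14.2 M per library in control skin (M, the SI prefix mega), from 8.21 to 16.4 M in eKO skin, from 6.43 to 6.73 M in control HFSC and from 6.43 to 9.39 M in eKO HFSC. Grk2 itself did not pass the test in either tissue: its log2 fold change (eKO over control, like all fold changes below) was -0.22 in skin (adjusted p = 0.343, limma) and -0.24 in HFSC (adjusted p = 0.501, limma). The HFSC libraries carried Cd34, a marker of the sort, at 1157 to 1323 normalised reads in control and 1160.0 to 1222 in eKO libraries. Krt15, a keratin of bulge cells, stood at 95754 to 119551. Of 11 bulge stem cell markers tested in HFSC, 1 rose and 1 fell in eKO (limma). The marker that fell was Lgr5 (log2 fold change -0.94, adjusted p = 2.85e-06, limma). All 4 measured Y-linked genes were also lower in eKO HFSC; Ddx3y, for example, lay at 1176 to 1216 in control and at 359 to 434 in eKO libraries. In skin 1 library of each genotype, control replicate 5 and eKO replicate 3, had at most 1 read of Ddx3y, and the other 8 lay at 1030 to 1304. The part of this difference between libraries in the IGF gene values was not tested in HFSC; for skin, values without those 2 libraries are given below. Of the 13784 genes tested in HFSC, 2673 passed an adjusted p of 0.05 (19.4%), against 62 of 16589 in skin (0.374%).

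In HFSC, Igfbp2, which binds both IGFs and is made by many fetal and adult tissues, stood at 1.00, 1.05 and 2.00 normalised reads in the 3 control libraries and at 709, 634 and 626 in the 3 eKO libraries. These values rest on 1, 1 and 2 reads in the controls and on 935, 578 and 588 reads in eKO. The groups do not overlap, and the 3 eKO libraries lie close to each other. The ratio of the summed levels was 489, with a counting interval (95%) from 191 to 1798 that covers counting error only. Since the gene was chosen for this contrast, all HFSC values of the 9 genes are given as a description with no test.

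The growth factor gene Igf1 was the other gene with hardly any reads in control HFSC, at 0, 3.16 and 3.00 normalised reads, and it stood at 53.8, 18.6 and 99.1 in eKO. The groups do not overlap, but the eKO libraries differ widely from each other, unlike for Igfbp2. The ratio of the summed levels was 28.1, with a counting interval (95%) from 12.7 to 77.6, from 6 reads in all controls and 181 in all eKO libraries.

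The receptors differed little by comparison. Igf1r, the receptor that transmits the IGF signal, was measured at 1667, 1930.3 and 1791 in control HFSC and at 1576, 1356 and 1538 in eKO, a log2 fold change of -0.27. Igf2r, which clears IGF-II, was measured at 236, 153 and 213 in control and at 294, 280 and 285 in eKO, a log2 fold change of 0.54. Neither gene's groups overlap, with Igf1r lower and Igf2r higher in every eKO library.

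Of the other binding proteins, Igfbp3, the main carrier of IGFs in blood, was lower in every eKO library: 2071, 2374 and 2276 in control against 1348, 1127 and 1431 in eKO, a log2 fold change of -0.79. Igfbp5, the neighbour of Igfbp2 and a binding protein that attaches to the extracellular matrix, was higher in every eKO library: 656, 613 and 529 in control against 835, 923 and 784 in eKO, a log2 fold change of 0.50. Igfbp4, a binding protein cut by PAPP-A, was measured at 1736, 1386 and 1622 in control and at 1400.3, 1037 and 1072 in eKO. Its groups overlap, because the lowest control library lies under the highest eKO library, and its log2 fold change was -0.44. Igfbp6, which prefers IGF-II, ranged from 71.8 to 138 in control and from 68.0 to 115 in eKO, and Igfbp7 from 190.4 to 292 and from 206 to 339. The groups of both overlap. In all, the groups of 6 of the 9 do not overlap (4 higher, 2 lower). Over all genes tested 36.3% had separate groups (18.9% higher, 17.4% lower), and nothing is read from the count since this contrast chose the genes. The median log2 fold change was 0.13 over the 9 and -0.029 over all 13784 genes.

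**Figure D1:**
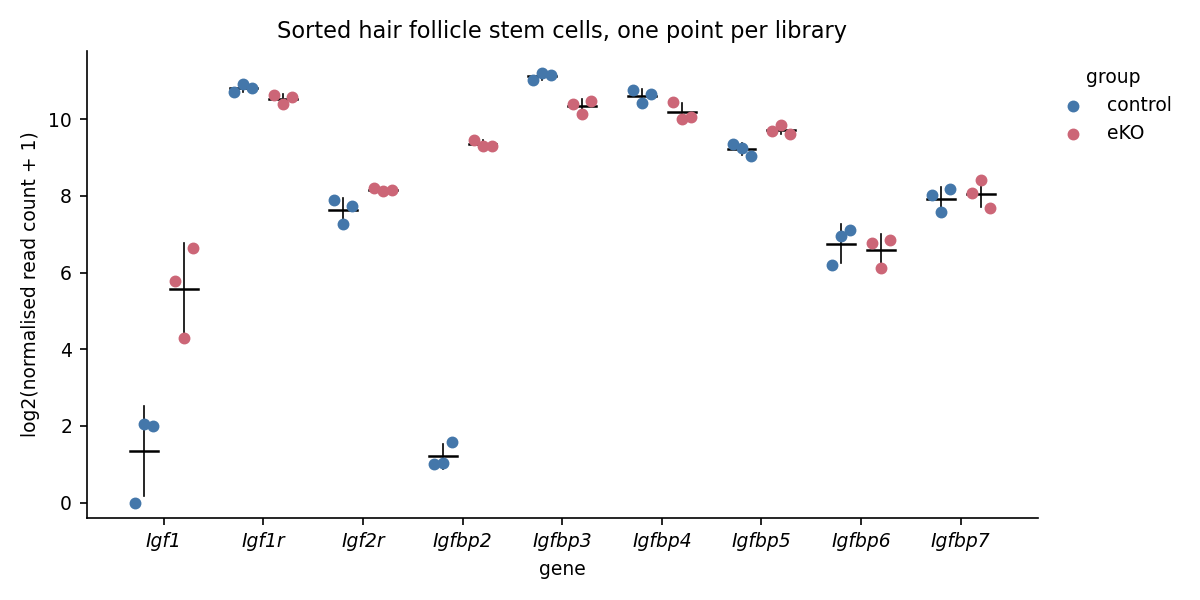
Levels of the 9 genes in each HFSC library, as log2(normalised read count + 1), with control in blue and eKO in red; horizontal bars are group means and vertical bars the SD (n = 3). Igfbp2 and Igf1 lie near the bottom in all 3 control libraries and above them in all 3 eKO libraries, while the means of the other 7 genes differ between genotypes by at most 0.79 log2 units, that of Igfbp3.

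To compare levels between genes, the normalised reads were divided by the length of each gene's merged exons (GENCODE M21), which gives a level per kilobase. On that scale control HFSC had, from high to low, Igfbp3 (716 ± 49.3, SD, n = 3), Igfbp4 (358 ± 40.4), Igfbp7 (204 ± 42.7), Igf1r (107 ± 7.83), Igfbp6 (100.1 ± 31.4), Igfbp5 (99.8 ± 10.8), Igf2r (21.6 ± 4.65), Igfbp2 (0.731 ± 0.305) and Igf1 (0.207 ± 0.180). The ranges of Igf1r, Igfbp6 and Igfbp5 overlap, and those of all other neighbours in the order are separate. In eKO HFSC Igfbp2 was second, at a level per kilobase of 355 ± 24.7 (SD, n = 3), and its range overlapped that of Igfbp3 at 416 ± 50.2. Igfbp4 followed at 265 ± 45.4 and Igfbp7 at 224 ± 55.1, whose ranges overlap each other, and Igf1 stayed last at 5.77 ± 4.07. The summed level per kilobase of the 6 binding proteins was 1478 ± 61.1 in control and 1489 ± 89.1 in eKO (SD, n = 3), so the sum differed by less than the spread between libraries while its make-up differed. Igfbp2 supplied 0.0489% of the sum in control and 23.9% in eKO, Igfbp3 48.4% and 27.95%, Igfbp4 24.2% and 17.7%, and Igfbp5 6.78% and 9.50%.

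**Figure D2:**
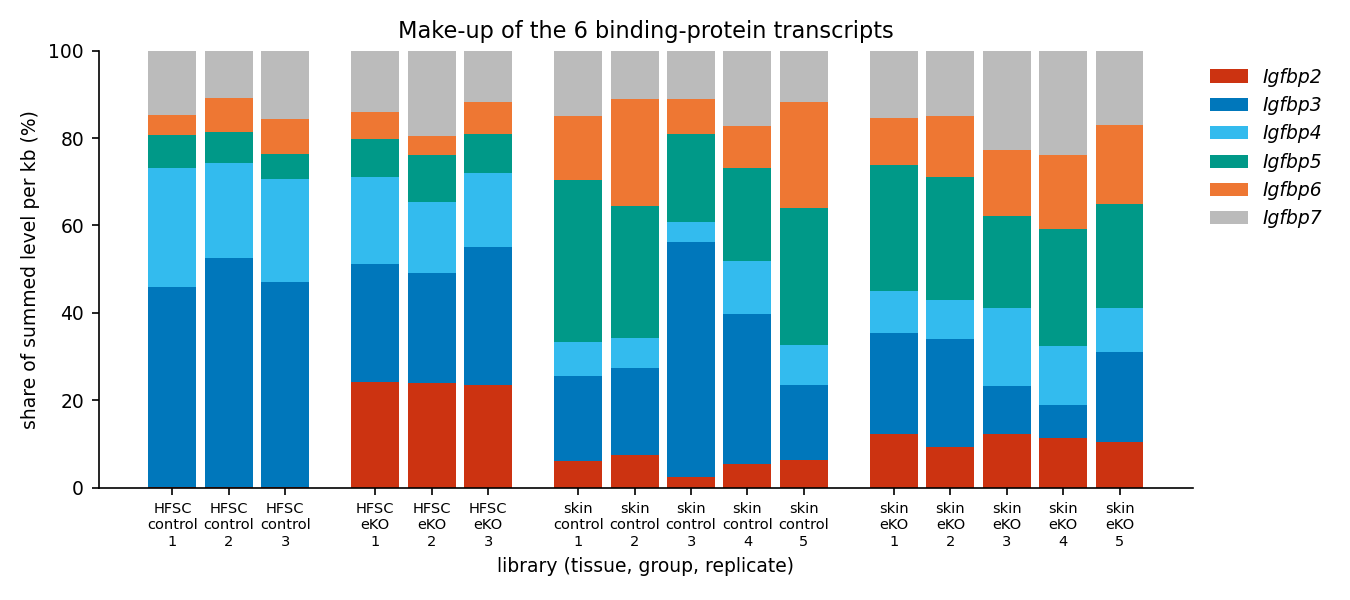
Share of each binding-protein transcript in the summed level per kilobase of the 6 binding proteins (y axis, percent), with 1 bar per library, grouped by tissue and genotype. The Igfbp2 segment is invisible in the 3 control HFSC bars and makes up 23.5% to 24.1% of the 3 eKO bars.

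Markers of other cell types also differed between the genotypes in HFSC. Of 12 endothelial markers fixed for the check, 9 could be tested and 8 rose in eKO (limma), where 10.7% of all genes rose. The summed level of the 12 ran from 56.0 to 71.5 in control and from 1217 to 1378 in eKO libraries. Plvap, a protein of fenestrated capillaries, stood at 5.98, 5.26 and 9.0 in control and at 434, 532 and 489 in eKO, and the junction cadherin Cdh5 at 8.98, 0 and 1.00 against 101, 73.4 and 154. The endothelial claudin Cldn5 was listed at 0 in all 6 libraries, and Egfl7 at 0 in all 3 eKO libraries. The part of these cells in the Igfbp2 and Igf1 values was not tested, and in bulk samples more cells of a type and more RNA per cell cannot be told apart.

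Other lists differed as well, where 10.7% of all genes rose and 8.74% fell. The sums below run over all listed markers of a type, tested or not. Of 8 dermal fibroblast markers, 3 were tested and 1 rose; their summed level was 134 to 156 in control and 84.4 to 134 in eKO, with Lum, Dpt and Twist2 listed at 0 in all 6 libraries. Both tested dermal papilla markers fell (sums of 102 to 139 against 21.9 to 50.04), with Sox2, Alx4 and Fgf10 at 0 throughout. Of 11 tested hair matrix and shaft markers 9 rose (sums of 884 to 1083 against 3011 to 3201), of 6 sebaceous gland markers 4 rose (2388 to 2557 against 11332 to 12398), of 8 markers of differentiated epidermis 5 rose and 2 fell (2799 to 4624 against 16755 to 17584), and of 4 leukocyte markers 1 rose and 1 fell (214 to 251 against 862 to 1555). Most of the leukocyte sum was Cd74, the marker that rose, at 122 to 158 in control and 787 to 1442 in eKO. Lyz2 fell (log2 fold change -2.503, adjusted p = 0.0369, limma), and Ptprc (-0.199) and Cd68 (-0.0129) did not pass. Adgre1 and Mrc1, not tested, were listed at 0 in all eKO libraries. Csf1r and Cd207, not tested either, had higher means in eKO (4.08 against 12.7 and 3.05 against 4.05). Of 4 tested melanocyte markers 1 fell (sums of 1888 to 2270 against 622 to 950). The 1 tested adipocyte marker, Fabp4, rose, at 0 to 12.6 in control and 25.2 to 62.9 in eKO. The sums of the adipocyte list were 4.99 to 28.4 against 51.5 to 68.2. The 1 tested skeletal muscle marker did not pass. Of 3 tested pericyte and smooth muscle markers 1 rose and 1 fell (1729 to 1991 against 1519 to 1563). The part of all these cell types in the IGF gene values was not tested.

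By the likeness of their pattern over the 16 libraries, the genes nearest to Igfbp2 among 13227 tested in both tissues were Vwf, Lrg1, Aqp1, Plvap and B3gnt3. Likeness was the root mean square difference of log2(value + 1) centred within each tissue, and it was 0.684 for Vwf, 0.854 for Lrg1, 0.858 for Aqp1, 0.861 for Plvap and 0.877 for B3gnt3. Vwf (von Willebrand factor, a clotting protein of endothelium) was listed at 0 in all 3 control HFSC libraries and at 120 to 148 in eKO. Aqp1, a water channel, stood at 4.00 to 22.9 in control and 1358 to 1597 in eKO HFSC, and Lrg1, a secreted glycoprotein, at 7.36 to 8.98 and 738 to 1169. B3gnt3, a glycosyltransferase, stood at 0 to 3.16 and 84.2 to 136. The measure is led by the jump from few reads in control HFSC, which all 5 share with Igfbp2.

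Of the 3 genes on each side of Igfbp2 by annotation order, the direct neighbour Igfbp5 was higher in every eKO HFSC library, as described above (529 to 656 in control, 784 to 923 in eKO). Smarcal1, an annealing helicase that lies upstream, was measured at 84.0 to 137 in control HFSC and 63.6 to 88.7 in eKO, with a log2 fold change of -0.55 that did not pass (adjusted p = 0.217, limma). Rpl37a, a ribosomal protein gene, was measured at 15.0 to 23.1 and 8.77 to 30.3 and did not pass (log2 fold change -0.08, adjusted p = 0.944, limma). Ankar and Tnp1 were listed at 0 in every HFSC library. Beyond Igfbp5 lies Tns1, which encodes a tensin, an adaptor between integrins and the actin skeleton; it fell in eKO HFSC from 4994 to 5369 in control to 3414 to 3747 (log2 fold change -0.53, adjusted p = 4.8e-04, limma).

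The rule that chose the genes did not use the contrast in whole skin, though earlier results of these data were known. In whole skin 0 of the 9 passed the threshold (limma with adjustment over 16589 genes, of which 0.374% passed). At an unadjusted p under 0.05 there were 3 (Igfbp2, Igfbp4 and Igfbp7), the same number with edgeR and with DESeq2. Neither edgeR nor DESeq2 called any of the 9 after adjustment. Such an unadjusted p was found for 2348 of all 16589 genes with limma, 2317 with edgeR and 2618 with DESeq2. None of the 9 had groups that do not overlap, against 4.18% of all genes.

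Igfbp2 had the largest difference of the 9 in skin. Its levels were 745, 962, 263, 385 and 643 normalised reads in the 5 control libraries and 1446, 1205, 1059.5, 1185 and 935 in the 5 eKO libraries. The ranges overlap only because control replicate 2 lies above eKO replicate 5. The log2 fold change was 1.09 (95% interval 0.41 to 1.77), with an adjusted p of 0.158 (limma), which ran from 0.0537 with DESeq2 to 0.321 without the 2 libraries with at most 1 Ddx3y read (log2 fold change 1.18) over all alternatives. In those 8 libraries 0 of 16581 genes passed (limma), with 1790 at an unadjusted p under 0.05. The share of Igfbp2 in the summed level per kilobase of the 6 binding proteins was 5.50% in control (2.35% to 7.41%) and 11.1% in eKO (9.37% to 12.2%).

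Igfbp4 was measured at 2337, 2153, 1239, 2028 and 2219 in control skin and at 2700.3, 2757, 3718, 3366 and 2167 in eKO. Its log2 fold change was 0.57 (95% interval 0.14 to 1.00, adjusted p = 0.222, limma), opposite in sign to its HFSC value of -0.44. Igfbp7 was measured at 1225, 933, 802, 787 and 788 in control and at 1202, 1256, 1290.0, 1635 and 997 in eKO, a log2 fold change of 0.50 (0.15 to 0.84, adjusted p = 0.191, limma). Both were higher in most eKO libraries, with overlapping groups.

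Igfbp3 was measured at 4123, 4389, 10231, 4066 and 2966 in control skin and at 4657, 5363, 1622, 1311 and 3092 in eKO. Control replicate 3 was far above every other library, and the same library had the lowest Igfbp4 and the lowest Igfbp2 of its group. The log2 fold change of Igfbp3 was -0.75 (95% interval -1.72 to 0.21, adjusted p = 0.478, limma), and -0.47 without that library (adjusted p = 0.721, limma).

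The remaining 5 genes lay closer to no difference in skin, with wide intervals for some. Igf1 had a log2 fold change of 0.17 (95% interval -0.69 to 1.02, adjusted p = 0.881, limma), with 266 to 1321 normalised reads in control and 587 to 1056 in eKO, against an HFSC value of 4.22. Igfbp5 had -0.10 (-0.80 to 0.59) and Igfbp6 -0.02 (-0.85 to 0.82). Igf1r had -0.12 (-0.29 to 0.05) and Igf2r 0.13 (-0.11 to 0.37), the narrowest intervals of the 9. The signs of Igf1, Igfbp5 and Igfbp6 turned under some alternatives, as given in the closing section.

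**Figure D3:**
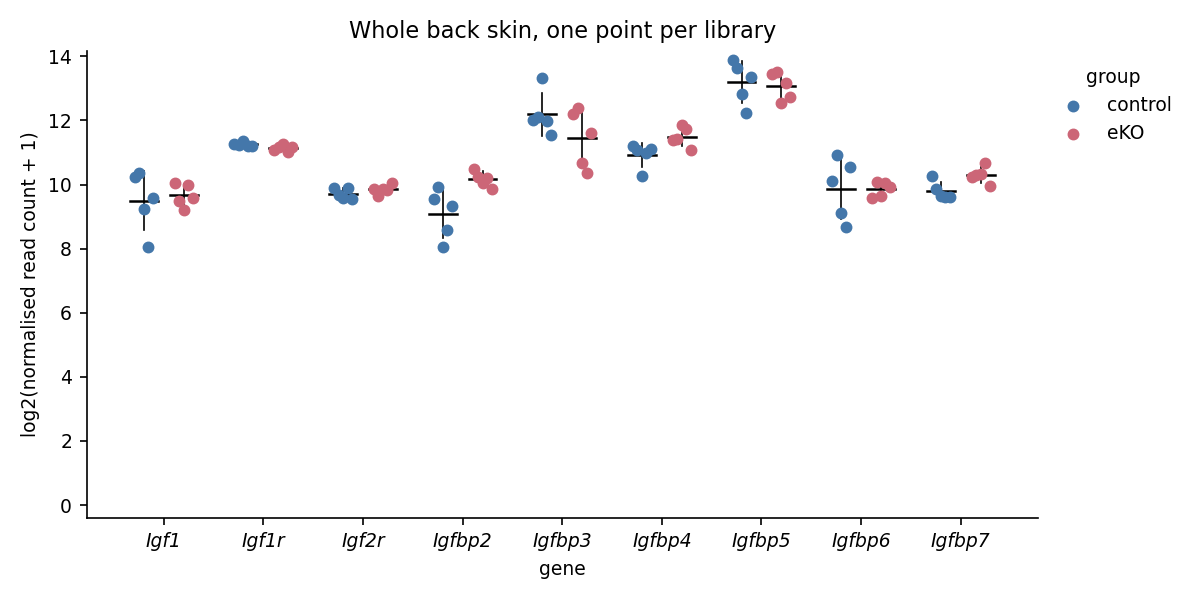
Levels of the 9 genes in each skin library, as log2(normalised read count + 1), with control in blue and eKO in red; horizontal bars are group means and vertical bars the SD (n = 5). All groups overlap; for Igfbp2 only control replicate 2 (962) lies above the lowest eKO library (935).

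**Figure D4:**
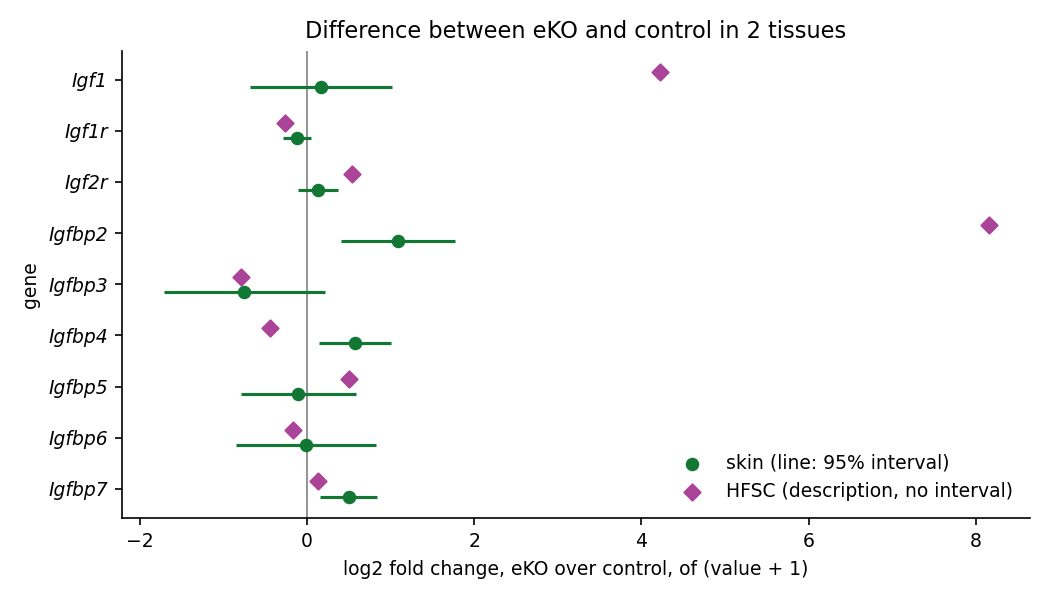
Log2 fold change of eKO over control for the 9 genes in skin (circles, with 95% intervals) and in HFSC (diamonds, shown as a description without interval). Igfbp2 (8.15) and Igf1 (4.22) stand apart in HFSC, while in skin the largest value is that of Igfbp2 (1.09).

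On the per-kilobase scale, control skin was led by Igfbp5 (1677 ± 682, SD, n = 5) and Igfbp3 (1647 ± 923), followed by Igfbp6 (982 ± 569) and Igfbp7 (750.3 ± 156), with overlapping ranges. Igfbp4 (452 ± 99.1) and Igfbp2 (325 ± 152) came next, then Igf1r (146 ± 6.92), Igf2r (90.7 ± 10.6) and Igf1 (83.9 ± 43.7). In eKO skin the level per kilobase of Igfbp2 was 631 ± 103 (SD, n = 5), in the same sixth place. Igfbp2 transcripts were present in every control skin library, whereas the control HFSC libraries had 4 reads in all.

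Skin libraries differ in hair cycle genes. The mean log2(value + 1) of 17 hair matrix and shaft markers ran from 2.72 to 12.3 over control and from 3.41 to 10.5 over eKO libraries. The slope of each IGF gene on this score, with genotype in the model, passed the threshold for 0 of 9 genes (limma, where 2.44% of all genes passed). At an unadjusted p under 0.05 there were 2 of the 9, near the share over all genes (3331 of 16589, limma). The slope of Igf1 was -0.15 log2 units per unit of score (95% interval -0.25 to -0.05, adjusted p = 0.092, limma). The slope of Igfbp5 was -0.11 (-0.19 to -0.02, adjusted p = 0.155, limma). Both values are negative, that is, toward lower levels where hair genes were higher. Igf1 passed only without eKO replicate 4 (-0.18, adjusted p = 0.0479, limma), and over the alternatives its adjusted p ran up to 0.511. With the score as a covariate the log2 fold change of Igfbp2 in skin was 1.06 (adjusted p = 0.112, limma).

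A list of 76 further genes of the pathway was set against these. In HFSC 53 could be tested and 16 passed (30 of the 53 had groups that do not overlap), 4 higher and 12 lower, with a median log2 fold change of -0.16 over the 53 against -0.029 over all genes. Over all genes 19.4% passed, 10.7% higher and 8.74% lower, and 36.3% were separate. Igf2, the other ligand, and the insulin genes Ins1 and Ins2 were listed at 0 in every library of both tissues, among 10 of the 76 genes; one of these, Txnip, is widely expressed, so a listing of 0 is not read as absence. Igfbp1, another binding protein, was listed at 0 in skin and had at most 2.10 normalised reads in any HFSC library.

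Of the proteases that release IGFs from binding proteins, and their inhibitors, 5 of 6 tested genes passed in HFSC, 2 higher and 3 lower. The share of all genes that passed was 19.4%, with 10.7% higher and 8.74% lower. Pappa, which encodes the PAPP-A protease of IGFBP4 and IGFBP5, rose from 475, 412 and 438 normalised reads in control to 1090.2, 1349 and 1193 in eKO (log2 fold change 1.45, SE 0.13, adjusted p = 7.75e-06, limma). Stc2, which encodes stanniocalcin 2, an inhibitor of PAPP-A, rose as well, from 14.0, 3.16 and 13.0 to 63.7, 44.9 and 50.1 (2.48, SE 0.59, adjusted p = 0.0112, limma). The protease and its inhibitor were both higher in every eKO library than in any control.

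The other 3 that passed are proteases, and they fell. Mmp2, a matrix metalloprotease, was 488, 491 and 494 in control and 196, 124 and 130.0 in eKO (log2 fold change -1.74, SE 0.20, adjusted p = 6.22e-05, limma). Adamts1, a secreted metalloprotease, was 479, 440 and 411 in control and 127, 272 and 232 in eKO (-1.14, SE 0.24, adjusted p = 0.00582, limma). Adam9, a membrane-bound one, fell by 0.47 on the log2 scale (adjusted p = 0.0433, limma), but was above the threshold with edgeR, without the filter on low values, and without any one of control replicates 1, 2 and 3 or eKO replicates 2 and 3 (adjusted p from 0.0564 to 0.144).

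All 3 tested genes that carry an IGFBP-type domain outside the family fell (8.74% of all genes passed with a lower value). Ccn1, a matrix protein that YAP signalling is known to induce, was 2505, 2449 and 2548 in control and 865, 1083 and 1092 in eKO (log2 fold change -1.31, SE 0.11, adjusted p = 5.14e-06, limma). Crim1, a membrane protein, fell by 0.53 on the log2 scale (adjusted p = 0.00194, limma). Ccn2, a relative of Ccn1, fell by 0.45 (adjusted p = 0.027, limma); it was above the threshold without control replicates 1 or 2 or eKO replicates 1 or 3 (adjusted p from 0.0598 to 0.123).

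Among receptors, Insr, the insulin receptor, fell from 1006, 1238 and 1189 to 719, 801 and 846 (log2 fold change -0.53, adjusted p = 0.00874, limma), and was above the threshold only without control replicate 2 (adjusted p = 0.0619). Of 10 adaptors of the receptors 2 passed, near the 19.4% of all genes. Irs2, an insulin receptor substrate, fell from 320, 237 and 256 to 183, 128 and 150.2 (log2 fold change -0.82, adjusted p = 0.0164, limma), and was above the threshold without control replicate 1 (adjusted p = 0.101) or 3 (adjusted p = 0.05004). Socs3, an inhibitor of cytokine signalling, rose by 0.41 on the log2 scale (adjusted p = 0.0385, limma), a call lost without any of control replicates 1, 2 and 3 or eKO replicates 1 and 2 (adjusted p from 0.066 to 0.148), and with scaling by library size.

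Further down the route, 2 of 19 PI3K, AKT and mTOR genes passed in HFSC. Pik3cb, a catalytic subunit of PI3K, fell by 0.76 on the log2 scale (adjusted p = 0.0261, limma), a call lost without control replicates 1 or 3 or eKO replicate 1 (adjusted p from 0.0641 to 0.127). Eif4ebp1, a repressor of translation that mTOR inactivates, rose by 0.82 (adjusted p = 0.0235, limma), a call lost without any of control replicates 1, 2 and 3 or eKO replicates 1 and 3 (adjusted p from 0.0546 to 0.0885). That share of the list is under the 19.4% of all genes.

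Of 12 tested FOXO factors and FOXO-regulated genes 3 passed, all lower. Over all genes 19.4% passed, and 8.74% passed with a lower value. Klf15, a metabolic transcription factor, fell by 0.63 on the log2 scale (adjusted p = 0.00874, limma; 0.0576 without control replicate 3). Fbxo32, a ubiquitin ligase subunit known as a FOXO target, fell by 0.54 (adjusted p = 0.0116, limma; 0.0696 without control replicate 1 and 0.0733 without control replicate 2). Bcl6, a repressor of transcription, fell by 1.05 (adjusted p = 0.034, limma), a call lost without the filter, and without control replicates 2 or 3 or eKO replicates 1 or 2 (adjusted p from 0.0703 to 0.165). Over the whole list, 6 of the 16 calls (Pappa, Stc2, Adamts1, Mmp2, Ccn1 and Crim1) held under each of 13 alternatives. Of the 16 pathway calls 12 were lower. In the same eKO libraries the endothelial, hair and sebaceous markers that passed all rose, and those of the other lists rose or fell, as given above. The part of those markers' cells in the pathway values was not tested.

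**Figure D5:**
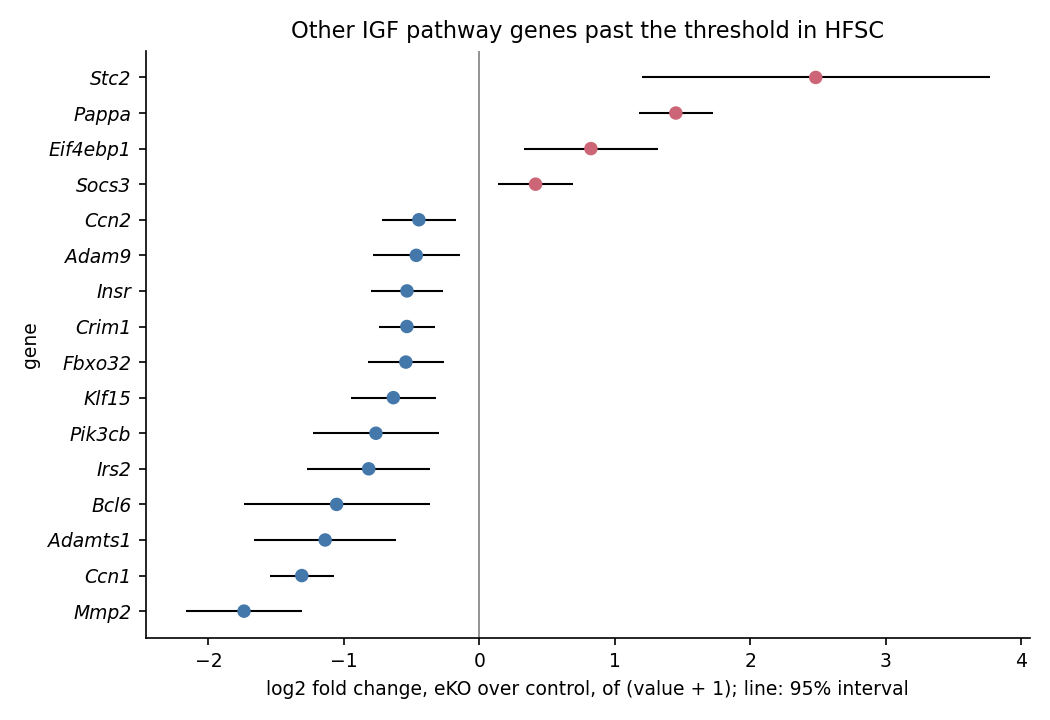
Log2 fold change of eKO over control in HFSC, with 95% intervals, for the 16 pathway genes that passed the threshold, ordered by value, with higher in red and lower in blue. The 4 higher genes are Stc2, Pappa, Eif4ebp1 and Socs3, and Mmp2 (-1.74) is the lowest of the 12 others.

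In skin 62 of the 76 could be tested, and 0 passed with limma, 0 with edgeR and 3 with DESeq2. At an unadjusted p under 0.05 there were 10 (limma). Among all 16589 genes 2348 had such an unadjusted p (limma), and 656 passed with DESeq2. The pathway genes closest to the threshold, named after their values were seen, were Mtor and Irs1. The kinase gene Mtor was 529, 534, 559.7, 557 and 520 in control and 424, 453, 408, 433 and 446 in eKO skin, so the groups do not overlap, with a log2 fold change of -0.32 (adjusted p = 0.0894, limma; 3.63e-04 with DESeq2 and up to 0.267 over the alternatives). Irs1, the other main insulin receptor substrate, had separate groups as well, at 610 to 900.5 in control and 264 to 529 in eKO (log2 fold change -0.80, adjusted p = 0.0956, limma; 0.00464 with DESeq2 and up to 0.198 over the alternatives). Of the 62, 5 had groups that do not overlap, against 4.18% of all genes. Pappa, which rose in HFSC, had a log2 fold change of 0.84 in skin (95% interval 0.32 to 1.35, adjusted p = 0.152, limma), and it passed with the hair score as a covariate (0.87, adjusted p = 0.0471, limma).

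Whether a pathway gene responded differently in HFSC than in skin was tested in 1 fit over all 16 libraries, in which 5.62% of 13227 genes passed and 2.18% passed with a lower fold change in HFSC. Of the 53 pathway genes tested 4 passed (7.55%, not far from the 5.62% of all genes). Each had a lower fold change in HFSC, for which the share of all genes was 2.18%. For Mmp2 the difference was -2.21 (SE 0.48, adjusted p = 0.0115, limma), from -1.74 in HFSC and 0.48 in skin, and it passed under each of 20 alternatives. Adamts1 (-1.44, adjusted p = 0.035), Irs2 (-1.07, adjusted p = 0.038) and Grb2, an adaptor of receptor kinases (-0.53, adjusted p = 0.0433, limma), were lost without any one of 7, 10 and 12 of the 16 libraries, with adjusted p up to 0.0879, 0.113 and 0.123. Grb2 did not pass in either tissue alone (adjusted p = 0.0623 in HFSC and 0.704 in skin, limma). The tissues differ in preparation as well as in kind, which cannot be told apart here.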

How the data were processed

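Bulk RNA of 10 whole-skin and 6 HFSC libraries was measured; all 16 columns of the 2 deposited tables were used. Per the values themselves, the authors deposited a signal, gene read counts divided by 1 size factor per library: dividing by the smallest step gave whole reads, within 0.01, for 100% of nonzero values. The submitters' processing notes name GRCm39 for all samples and featureCounts and DESeq2 for skin; the aligner and the treatment of strand and of shared reads are not given in the sources used here. How reads were shared between overlapping genes is therefore unknown. Symbols came from GENCODE M21 (94.1% of skin and 91.4% of HFSC identifiers matched), as did exon lengths and gene order; promoter windows came from RefSeq.

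Groups were taken from the genotype labels for skin and from the sample titles, Control or eKO, for HFSC. Each table was tested alone with limma 3.58.1 (R 4.3.3), its prior variance following the mean level. The response was log2(value + 1). A gene was kept where the number of libraries at 10 or above reached the size of the smaller group. P-values were adjusted by Benjamini-Hochberg over all genes tested, and the threshold was 0.05. Because 1 is added to each value, fold changes of low genes are understated. The difference between tissues was a contrast of 4 group means over 13227 genes. Counting intervals (95%) are exact binomial intervals of summed reads. Whole tables were also fitted with edgeR 4.0.16 and DESeq2 1.42.0 on the recovered reads, other pseudocounts, no filter, library-size scaling, each library left out, 2 skin libraries left out together, a replicate block and the hair score as covariate. The scripts were tested on simulated data.

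The members, gene lists and tests were chosen with earlier results of these data known. Named genes are the 9 members, every pathway gene past the threshold, the 5 genes most like Igfbp2 and the 3 genes on each side of it; any other gene named was chosen after its values were seen, or as a marker.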

Additional observations from a re-analysis of the deposited data

Results flagged for a closer look

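In skin, 2 of 18 groups of the 9 genes (each gene in each genotype) held a library far from the other 4 by Dixon's criterion, which chance meets in about 1 of 20 groups. Both were control replicate 3: its Igfbp3 was 10231 normalised reads, against 2966 to 4389 in the other control libraries, and its Igfbp4 was 1239, against 2028 to 2337.

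For 4 pathway genes the fold change differed between HFSC and skin (limma, a test of the difference itself over 16 libraries), out of 53 tested (7.55%), against 5.62% of all genes, or 2.18% with a lower value in HFSC. The difference, HFSC minus skin on the log2 scale, was -2.21 for Mmp2, -1.44 for Adamts1, -1.07 for Irs2 and -0.53 for Grb2. In HFSC all 4 were lower in every eKO library, though Grb2 did not pass there on its own (adjusted p = 0.0623, limma). In skin the groups of all 4 overlap. Only the call of Mmp2 held without each single library in turn; those of Adamts1, Irs2 and Grb2 were lost without any one of 7, 10 and 12 of the 16.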

How the results depend on the processing

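No skin fold change of the 9 genes crossed the threshold under any of 18 alternatives. One of these, chosen after seeing the data, left out the 2 skin libraries with at most 1 Ddx3y read; there the log2 fold change was 0.069 for Igfbp5 and 0.20 for Igfbp6, and 0 of the 9 and 0 pathway genes passed. Signs of values near 0 turned: the skin log2 fold change of Igf1 was -0.0073 with edgeR and -0.0053 with DESeq2 and ran from -0.19 to 0.38 with single libraries left out; that of Igfbp5 ran from -0.34 to 0.069 and that of Igfbp6 from -0.31 to 0.24, with 0.0081 for Igfbp6 under library-size scaling. Slopes on the hair score under library-size scaling were 0.013 for Igf1r, 0.00073 for Igf2r and 0.0019 for Igfbp7, and with single libraries left out they ran from -0.0068 to 0.0041 for Igf1r and from -0.030 to 0.022 for Igfbp7. The number of the 9 genes whose slope passed ran from 0 to 1 (Igf1, without eKO replicate 4). The 16 pathway genes that passed in HFSC became 9 to 14 with single libraries left out, fewest without control replicates 2 or 3. With DESeq2 22 passed, where 3016 of all 13784 genes did. In skin 3 pathway genes passed with DESeq2 (Ccn4, Irs1 and Mtor, Ccn4 at an adjusted p of 0.0132) and 2 with the hair score as covariate (Irs1 and Pappa), against 0. Among all 16589 genes 656 passed with DESeq2 and 153 with the hair score as covariate, against 62. The 4 pathway genes that differed between tissues became 1 to 6 with single libraries left out, 1 without skin eKO replicate 1 or HFSC control replicates 1 or 2. The cause of these changes was not tested. With a replicate block in HFSC 15 pathway genes passed, Socs3 being lost (adjusted p = 0.0579, limma); same-numbered libraries did not deviate together (correlations -0.060, -0.018 and -0.026), so the numbers are not read as pairs. The skin numbers follow deposition order and pair nothing. Depth limits Igfbp2 and Igf1 in control HFSC, at 4 and 6 reads in all: over the alternatives their HFSC log2 fold changes ran from 6.70 to 8.93 and from 2.93 to 4.86.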

Other observations

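In the annotation order, a tensin gene lies within 3 genes of 5 of the 6 binding-protein genes: Tns1 beside Igfbp2 and Igfbp5, Tns3 beside Igfbp3, Tns4 beside Igfbp4 and Tns2 beside Igfbp6. Tensins link integrins to the actin skeleton. The 4 were looked at after their values were seen, and all 4 fell in eKO HFSC (8.74% of all genes passed with a lower value). Tns4 was 5483 to 5629 in control and 3171 to 3957 in eKO (log2 fold change -0.65, adjusted p = 2.85e-04, limma), and Tns1 fell by 0.53. Tns2 was 397 to 436 and 228 to 293 (-0.64, adjusted p = 0.0152, limma), and Tns3 was 1217 to 1420.1 and 889 to 1137 (-0.41, adjusted p = 0.0313, limma). The calls of Tns1 and Tns4 held under each of 13 alternatives. That of Tns2 was lost without control replicates 2 or 3 (adjusted p of 0.0674 and 0.0679), and that of Tns3 without control replicates 1 or 2 or eKO replicates 2 or 3 (adjusted p from 0.0643 to 0.146). In skin no tensin passed, with log2 fold changes from -0.39 for Tns4 to 0.33 for Tns3. The binding proteins beside them did not move together: Igfbp2 and Igfbp5 were higher in every eKO HFSC library and Igfbp3 was lower in every one.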
